A study of Mus musculus with 3 samples.

Results

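The genes described here encode the Wnt ligands Wnt3, Wnt6, Wnt10a and Wnt11, the secretion factors Wls and Porcn, the receptors Fzd5 and Fzd7, and the co-receptors Lrp5 and Lrp6. They were chosen by name as a pathway set. All 10 were present among the 27998 genes counted, each as 1 protein-coding gene, and their UMIs (unique molecular identifiers, each standing for 1 captured transcript) were followed across the epithelial cell classes of 3 single-cell RNA sequencing libraries.

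The libraries held EpCAM+ epithelial cells scraped and dissociated from the small intestine of C57BL/6 mice aged 7 to 8 weeks at treatment. The study describes its floxed *Lef1* line as of mixed background and backcrossed to C57BL/6. Its methods give no background for the other lines. Every mouse, the WT control included, had received 2 tamoxifen doses of 2 mg. WT cells were taken on day 21 after tamoxifen. *LApc* (*Lgr5-CreERT2;Apc fl/fl*) cells were taken on day 29, and *LApcL* cells, which carry the same Cre and floxed *Apc* alleles together with *Lef1 fl/fl*, on day 21. In both mutants the tamoxifen-activated Cre is expressed from the *Lgr5* locus (*Lgr5-EGFP-IRES-CreERT2*), so deletion starts in Lgr5+ stem cells and the other epithelial cells of those mice can be unrecombined. *LApcL* against *LApc* addresses what the loss of *Lef1* adds to the loss of *Apc*, and *LApc* against WT addresses the loss of *Apc*. Mutant mice were taken when they reached the humane end point. Each genotype was 1 library from 1 mouse, so genotype, mouse, library and, for *LApc*, day cannot be told apart. There is no replicate check, and no difference between libraries carries a p-value.

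Wnt ligands are secreted lipid-modified proteins. Porcupine, the product of *Porcn*, attaches the lipid in the endoplasmic reticulum, and Wntless, the product of *Wls*, carries the modified ligand to the cell surface. A secreted Wnt binds a Frizzled receptor together with Lrp5 or Lrp6 on the receiving cell, which keeps the Apc complex from destroying β-catenin. In the small intestine, Wnt3 is known as a product of Paneth cells that acts on neighbouring crypt stem cells, and stromal cells, which the EpCAM selection was meant to exclude, supply further Wnts. Cells without *Apc* activate β-catenin downstream of ligand and receptor.

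The promoters of the ligands are shown because their transcripts differ most sharply between the cell classes. RefSeq promoter windows of 300 bases on GRCm38.p6, from 250 bases before to 50 after the transcription start, were found for 6 of the 10 genes, and *Wnt11* had 2. *Wnt10a*, *Porcn*, *Lrp5* and *Lrp6* had no entry. Both strands of each window were searched for 4 words of the Tcf/Lef motif. These were CTTTGAA, the variant CTTTGAT, the variant CTTTGTA and the variant CTTTGTT, and a match is in capitals below. *Wnt3* lies at chr11:103773925-103774224 on the plus strand, *Wnt6* at chr1:74771642-74771941 on the plus strand, and the upstream *Wnt11* window at chr7:98834862-98835161 on the plus strand. Each sequence runs 5′ to 3′.

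Wnt3: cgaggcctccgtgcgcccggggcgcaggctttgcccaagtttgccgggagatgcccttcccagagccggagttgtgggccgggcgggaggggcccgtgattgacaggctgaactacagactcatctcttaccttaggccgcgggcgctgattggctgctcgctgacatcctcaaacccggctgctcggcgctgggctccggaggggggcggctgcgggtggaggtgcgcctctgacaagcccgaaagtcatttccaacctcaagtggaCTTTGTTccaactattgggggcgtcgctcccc

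Wnt6: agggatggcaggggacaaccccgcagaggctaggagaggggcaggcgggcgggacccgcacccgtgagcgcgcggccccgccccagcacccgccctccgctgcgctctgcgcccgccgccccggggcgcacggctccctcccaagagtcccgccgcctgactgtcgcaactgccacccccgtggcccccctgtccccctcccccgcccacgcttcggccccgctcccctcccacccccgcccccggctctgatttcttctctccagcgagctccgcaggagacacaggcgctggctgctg

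Wnt11: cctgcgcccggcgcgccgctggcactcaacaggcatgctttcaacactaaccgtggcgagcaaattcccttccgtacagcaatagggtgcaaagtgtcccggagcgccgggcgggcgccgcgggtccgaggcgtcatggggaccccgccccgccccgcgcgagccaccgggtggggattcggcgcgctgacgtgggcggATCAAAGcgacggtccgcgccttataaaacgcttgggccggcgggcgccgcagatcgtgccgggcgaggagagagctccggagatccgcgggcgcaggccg

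*Wnt3* held CTTTGTT with its first base 19 bases after the start, and *Wnt11* held ATCAAAG, the reverse complement of CTTTGAT, 51 bases before it. The *Wnt6* window held none of the 4 words in either direction. Of the other windows, *Fzd7* held AACAAAG 130 bases before its start, while *Wls*, *Fzd5* and the second *Wnt11* window held none. Thus 3 of 7 windows held a word, against 16.9% of all 32851 promoter windows. The windows of *Wnt3*, *Wnt6* and *Wnt11* were 65.7%, 76.7% and 71.3% G and C, against a median of 52.7% over all windows. A match is a string in the sequence and does not show that a factor binds there.

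The files held 11453 WT, 13214 *LApc* and 17388 *LApcL* barcodes with 140181087, 79696291 and 191509615 UMIs. After filters on gene number and mitochondrial share and removal of predicted doublets, 10138, 9601 and 14394 cells remained, with median depths of 9713, 6132 and 10156 UMIs per cell. Barcodes found in more than 1 kept library numbered 122 for WT and *LApc*, 219 for WT and *LApcL*, and 197 for *LApc* and *LApcL*. Cells were classed by rebuilt clusters and markers, with the genes described here left out of the clustering. Every named class had all of its own markers detected. The Wnt/TA-like class (crypt cells with Wnt-target and cell-cycle genes) was divided into adenoma-enriched subclusters, in which WT made up less than 10% of cells after weighting for library size, and the other Wnt/TA-like cells. The adenoma-enriched cells numbered 5 in WT, 1256 in *LApc* (13.1% of kept cells) and 9227 in *LApcL* (64.1%). *Apc* transcript was not lower in the mutants (19.3 CPM in WT and 33.1 and 35.9 CPM in mutant Wnt/TA-like cells), which in 3′ counts does not check a deleted exon, so the genotypes are those of the labels. *Lef1* was 21.7 CPM in *LApc* against 3.65 CPM in *LApcL* adenoma-enriched cells, where 402 UMIs remained.

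A level is given as CPM, the UMIs of a gene per 1000000 UMIs summed over the cells of 1 class in 1 library, with an exact 95% Poisson interval. A log2 ratio of 2 levels has an exact conditional binomial interval and a share of cells an exact binomial one. These intervals cover counting error only and not the difference between mice. Since 3′ counts are not corrected for how each gene is captured, levels were compared within a gene. A lower sum can come from fewer expressing cells or from less RNA per cell, and CPM does not separate these. Shares of cells with a UMI were taken after thinning each cell to 3000 UMIs.

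*Wnt6* was concentrated in the adenoma-enriched cells of *LApc*. Its level there was 56.5 CPM (51.9 to 61.3, 562 UMIs), against 3.02 CPM (2.70 to 3.36, 333 UMIs) in the adenoma-enriched cells of *LApcL*. In the other Wnt/TA-like cells it was 0.424, 1.01 and 0.827 CPM in WT, *LApc* and *LApcL*. Enterocyte-like cells gave 1.36, 2.18 and 1.84 CPM, and in WT they were the highest named class for *Wnt6*. Whether their UMIs are free RNA or their own transcript was not tested. The *LApc* adenoma-enriched level thus stood far above every other class, and that of *LApcL* was above the enterocyte-like level by a small margin whose intervals did not overlap (1.23 to 2.64 CPM for the latter). After thinning, 13.3% of *LApc* adenoma-enriched cells and 0.977% of those of *LApcL* held a *Wnt6* UMI, beside 0.272%, 0.814% and 0.390% of enterocyte-like cells at median depths of 9686.5, 6206 and 8157.5 UMIs. The goblet-like, Paneth-like and enteroendocrine-like cells of the 3 libraries held between 1 and 8 *Wnt6* UMIs each, and the tuft-like cells between 1 and 4.

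*Wnt10a*, which encodes another secreted Wnt and is the downstream neighbour of *Wnt6*, was also concentrated in the adenoma-enriched cells of *LApc*, at lower counts. It was 11.6 CPM (9.54 to 13.9, 115 UMIs) in *LApc* against 0.834 CPM (0.673 to 1.02, 92 UMIs) in *LApcL* adenoma-enriched cells. The other Wnt/TA-like cells held 0 *Wnt10a* UMIs in WT, where 3 UMIs would have been 0.0909 CPM, 2 UMIs in *LApc* and 1 UMI in *LApcL*. In all 10138 WT cells only 4 UMIs were counted, and all 4 lay in Paneth-like cells. In *LApcL*, enteroendocrine-like cells held 8 UMIs (3.69 CPM, 1.59 to 7.27) and goblet-like cells 13 UMIs (1.83 CPM, 0.972 to 3.12), levels above the adenoma-enriched one whose intervals overlapped it for goblet-like cells but not for enteroendocrine-like cells. Of the goblet-like UMIs, 11 lay in the cells over 2000 CPM of *Lyz1* described below, which held 1 *Wnt6* UMI. With secreted Paneth products left out of the total, *Wnt10a* was 8.12 CPM (4.05 to 14.5) in these *LApcL* cells. The corresponding *LApc* cells held 1 UMI (5.21 CPM, 0.132 to 29.0), and those of WT held 0, with an upper limit of 7.84 CPM. Both overlapped the *LApcL* interval. WT and *LApc* enteroendocrine-like cells held 0 *Wnt10a* UMIs, where 3 UMIs would have been 0.957 and 1.58 CPM. With secreted Paneth products left out, their exact upper limits were 1.19 and 1.95 CPM. The *LApc* limit overlapped the *LApcL* interval in that total (1.60 to 7.29).

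On the annotation of GRCm38 (GENCODE M21), *Wnt6* (ENSMUSG00000033227) occupies chr1:74771892-74785322 and *Wnt10a* (ENSMUSG00000026167) chr1:74791516-74804179. Both are on the plus strand and lie 6193 bases apart with 0 genes between them. The antisense gene *Gm29539* overlaps *Wnt6* on the opposite strand and was counted separately. Whether reads running on from *Wnt6* reach *Wnt10a* was not tested. The positions of the other genes are given where they are described.

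*Wnt11* was rare in all libraries, with 3, 19 and 92 UMIs in WT, *LApc* and *LApcL* kept cells. Its highest class level was 1.31 CPM (0.696 to 2.23, 13 UMIs) in *LApc* adenoma-enriched cells, followed by 0.780 CPM (0.624 to 0.963, 86 UMIs) in those of *LApcL*, and these intervals overlapped. The other Wnt/TA-like cells held 2, 1 and 0 UMIs, and the goblet-like, Paneth-like and tuft-like cells held 0 in each library. *Wnt11* (chr7:98835112-98855195, plus strand) was therefore detected mainly in adenoma-enriched cells.

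**Figure D1:**
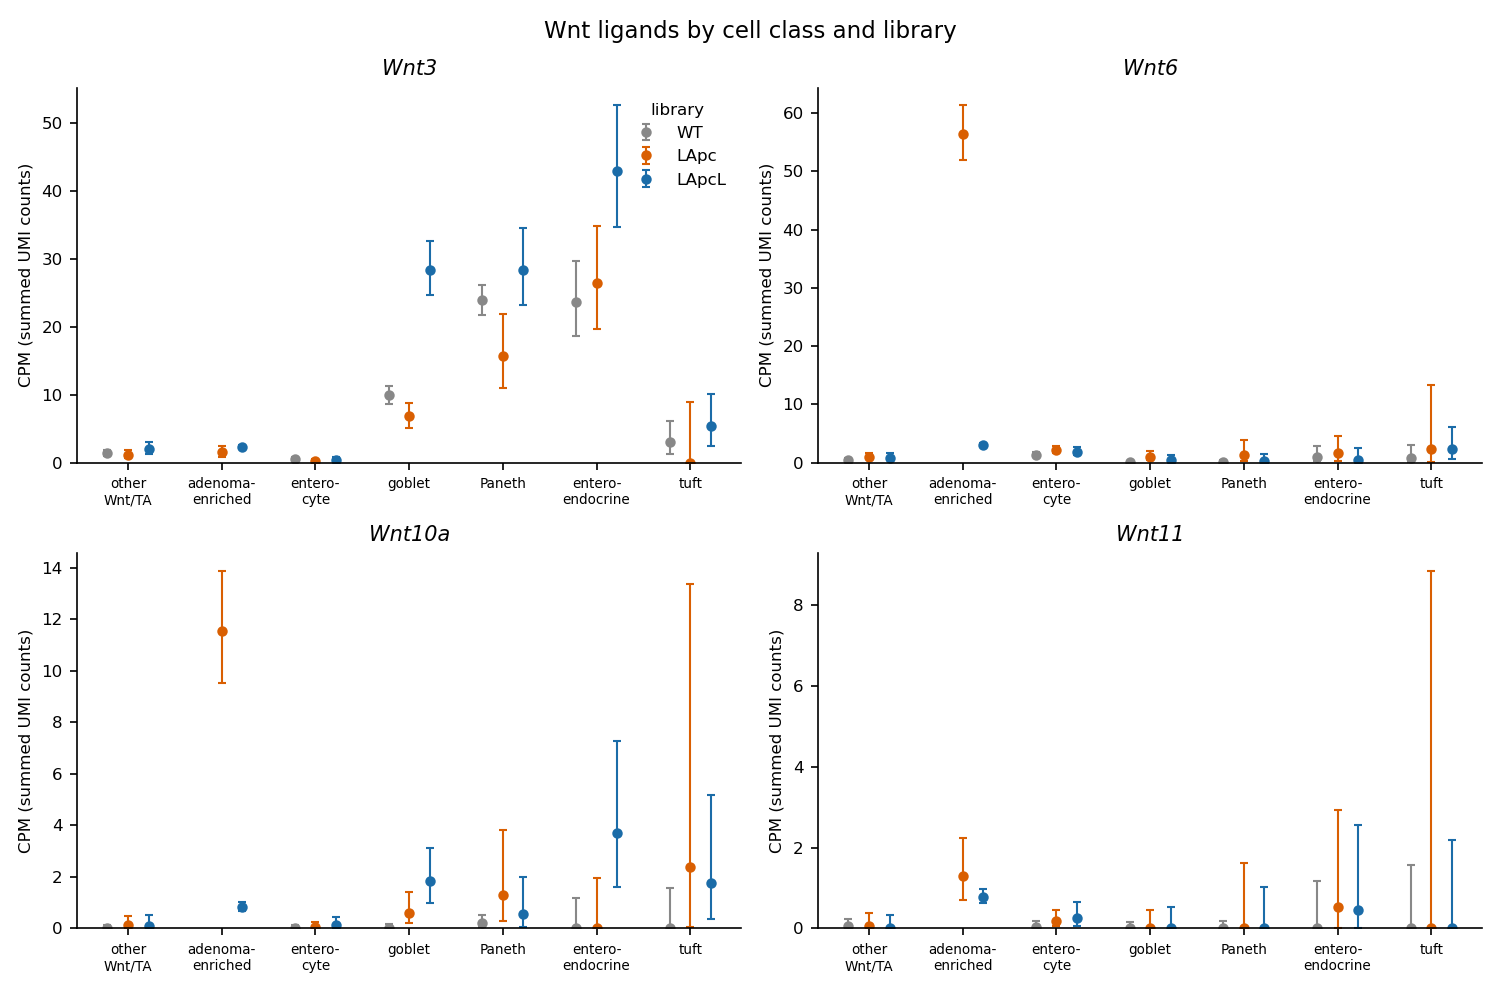
Levels of *Wnt3*, *Wnt6*, *Wnt10a* and *Wnt11* (CPM of summed UMI counts, linear axes from 0) in 7 cell classes of the WT, LApc and LApcL libraries, with exact 95% Poisson intervals as bars. Classes of fewer than 50 cells are not drawn, so adenoma-enriched cells have no WT point. *Wnt6* and *Wnt10a* stand at 56.5 and 11.6 CPM in LApc adenoma-enriched cells, while *Wnt3* is highest in goblet-like, Paneth-like and enteroendocrine-like cells.

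*Wnt6* was uneven among the *LApc* adenoma-enriched cells. Of the 1256 cells, 278 held a UMI, 66 held 3 or more, and the highest cell held 8. These cells, 13.1% of the library, held 87.0% of its 646 *Wnt6* UMIs and 90.6% of its 127 *Wnt10a* UMIs. In *LApcL* the adenoma-enriched cells were 64.1% of the library and held 86.3% of 386 *Wnt6* UMIs and 76.0% of 121 *Wnt10a* UMIs, spread over 246 and 81 of 9227 cells.

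Across the 5 adenoma-enriched subclusters, the *LApc* level of *Wnt6* exceeded that of *LApcL* in each, with no overlap of the intervals. Subcluster 6, marked by *Wfdc18* at 1812 CPM, held 395 of the 562 *LApc* UMIs and stood at 98.0 CPM (88.6 to 108) in *LApc* against 21.5 CPM (17.7 to 25.9) in *LApcL*. It contained 566 and 543 cells, but its *Wfdc18* level is pooled over the libraries. In *LApcL*, 210 adenoma-enriched cells of all subclusters held more *Wfdc18* than *S100g* UMIs, a split described below. Most of the 543 cells therefore did not. Without correction between libraries, the subcluster richest in *Wfdc18* held 824 *LApc* and 22 *LApcL* cells. In subclusters 0, 2, 4 and 5 the levels were 15.4, 25.6, 33.1 and 45.1 CPM in *LApc* and 2.37, 1.29, 2.55 and 2.76 CPM in *LApcL*. *Wnt10a* in subcluster 6 was 18.9 CPM (14.9 to 23.6) in *LApc* against 2.71 CPM (1.48 to 4.55) in *LApcL*.

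**Figure D2:**
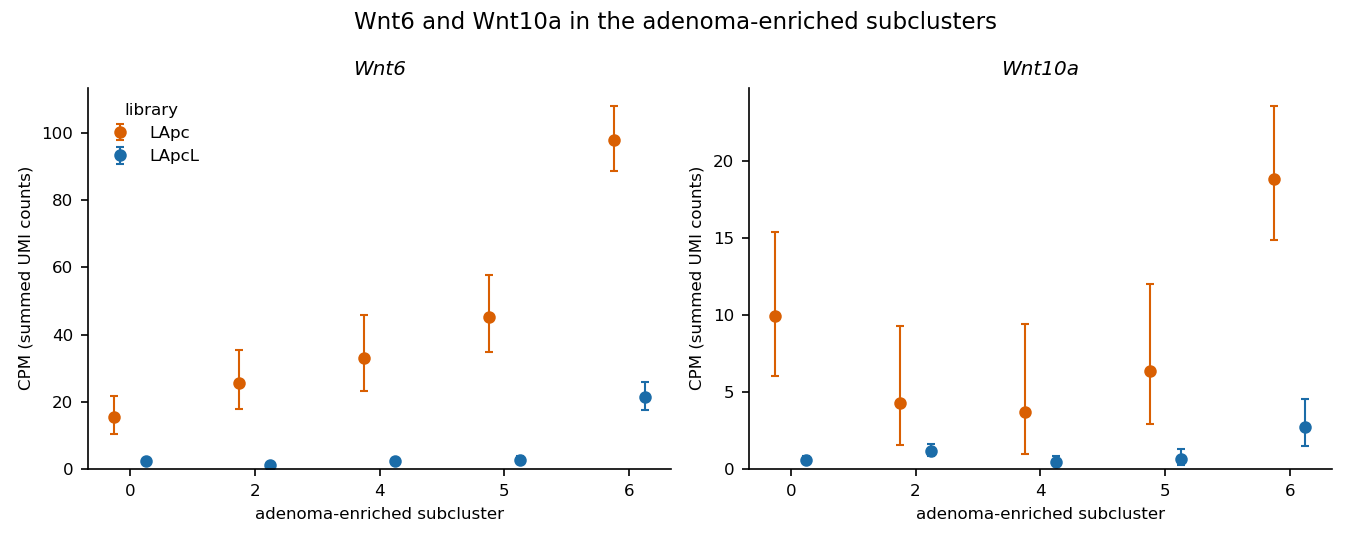
Levels of *Wnt6* and *Wnt10a* (CPM of summed UMI counts, linear axes from 0) in the 5 adenoma-enriched subclusters of LApc and LApcL, with exact 95% Poisson intervals. *Wnt6* is highest in subcluster 6 in both libraries, at 98.0 CPM in LApc against 21.5 CPM in LApcL. The LApc point lies above the LApcL point in every subcluster for both genes.

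The same difference varied with the state of the adenoma cell. Cells with more *S100g* (a calcium-binding protein gene) than *Wfdc18* UMIs were 399 in *LApc* and 8742 in *LApcL*, and *Wnt6* there was 33.4 and 2.50 CPM, a log2 ratio of *LApcL* over *LApc* of -3.74 (-4.07 to -3.41). Cells with more *Wfdc18* than *S100g* were 612 and 210. They held 50.6 and 25.6 CPM, a log2 ratio of -0.99 (-1.43 to -0.56), so the difference was much smaller there and the intervals of the 2 ratios did not overlap. Cells with equal counts were 245 and 275, of which 217 and 197 held neither transcript, and *Wnt6* was 123 and 5.68 CPM in them (log2 ratio -4.43, -5.33 to -3.65). For *Wnt10a* the levels in the *S100g*-led cells were 13.7 and 0.795 CPM. In the *Wfdc18*-led cells they were 4.55 and 3.25 CPM, where the interval of the log2 ratio (-1.95 to 0.78) spanned 0.

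*Wnt6* and *Wnt10a* were partly found in the same *LApc* cells. After thinning, 21 of 163 *LApc* adenoma-enriched cells with a *Wnt6* UMI also held *Wnt10a* (12.9%, 8.16 to 19.0%), against 17 of 1062 without (1.60%, 0.935 to 2.55%). The former were not the deeper cells, with a median of 5782 UMIs before thinning against 8002.5. In *LApcL*, 0 of 90 cells with *Wnt6* held *Wnt10a*, which allows a share of up to 4.02% by the exact interval, beside 0.186% of 9118 cells without. The *LApc* cells with a *Wnt6* UMI also had more of several secreted inhibitors, receptor-turnover genes and signal relay genes in the thinned counts. Of these 163 cells, 118 lay in the *Wfdc18*-marked subcluster 6, which held 549 of the 1225 thinned cells, so the split partly follows that subcluster. Among relay genes, the β-catenin gene *Ctnnb1* was higher (log2 ratio 0.69, 0.49 to 0.88), as were *Csnk1e*, *Csnk1a1* and *Gsk3b*. The intervals of *Dvl1*, *Dvl2*, *Dvl3*, *Axin1* and *Gsk3a* spanned 0. *Wif1*, which binds and sequesters Wnts, was 382 CPM with and 75.6 CPM without a *Wnt6* UMI (log2 ratio 2.34, 2.05 to 2.62), and *Notum*, which removes the lipid from Wnts, was 646 and 266 CPM (1.28, 1.09 to 1.47). *Wls* was 79.8 and 36.4 CPM (1.13, 0.57 to 1.67). In *LApcL* the same split gave 215 and 104 CPM for *Notum* (1.05, 0.65 to 1.42) and 44.4 and 26.6 CPM for *Wls* with an interval spanning 0 (-0.22 to 1.55).

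Markers of other cell types moved partly with this difference. In the adenoma-enriched cells all 8 immune markers were detected in both libraries and summed to 29.2 CPM in *LApc* against 2.80 CPM in *LApcL*. The 7 stromal markers summed to 18.0 CPM, of which *Acta2* was 13.6 CPM, and to 1.22 CPM, with *Col1a1*, *Col3a1* and *Lum* at 0 in both. The 4 endothelial markers summed to 44.9 and 42.1 CPM. Markers of other epithelial types were also higher in *LApc*, with 2937 against 1007 CPM for the 10 enterocyte markers and 3308 against 1248 CPM for the 8 goblet markers, while the Paneth markers summed to 1909 and 1771 CPM. The *Wnt6* difference was 18.7-fold over 562 and 333 UMIs, and the part of these other transcripts in it was not tested.

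*Wnt3* (chr11:103774150-103817957, plus strand) had a different distribution, with its highest class levels in the secretory lineages. In WT it was 23.9 CPM (21.8 to 26.2, 461 UMIs) in Paneth-like and 23.6 CPM (18.5 to 29.6, 74 UMIs) in enteroendocrine-like cells, 2 levels whose intervals overlapped almost entirely. It was 9.87 CPM (8.62 to 11.3) in goblet-like cells, 2.99 CPM in tuft-like cells, 1.39 CPM in other Wnt/TA-like cells and 0.549 CPM in enterocyte-like cells. Goblet-like cells thus lay below both, and the remaining classes lay lower still. In *LApc* the enteroendocrine-like, Paneth-like and goblet-like levels were 26.4, 15.7 and 6.78 CPM, and in *LApcL* they were 42.9, 28.4 and 28.4 CPM. The order of Paneth-like and enteroendocrine-like cells depends on the total. Secreted Paneth products held 65.8%, 56.7% and 55.8% of the UMIs of Paneth-like cells and 1.05% or less of those of enteroendocrine-like cells. With these genes left out of every total, the Paneth-like level was 69.8, 36.3 and 64.2 CPM, against 23.9, 26.5 and 43.0 CPM in enteroendocrine-like cells, and the intervals did not overlap in WT but did in both mutants. The pooled adenoma-enriched cells had a low *Wnt3* level, with 1.51 CPM (15 UMIs) in *LApc* against 2.28 CPM (251 UMIs) in *LApcL*, beside 0.262 and 0.381 CPM in their enterocyte-like cells. In *LApcL* it was uneven among the adenoma-enriched subclusters. Subcluster 5 (1187 cells) held 7.91 CPM (6.32 to 9.76, 86 UMIs), against 0.581 to 1.86 CPM in the other subclusters. In *LApc* subcluster 5 held 4.23 CPM (1.55 to 9.21) on 6 UMIs. After thinning, a *Wnt3* UMI was held by 7.06%, 6.02% and 9.09% of Paneth-like cells, 6.85%, 5.80% and 14.5% of enteroendocrine-like cells and 2.82%, 1.74% and 6.91% of goblet-like cells, beside 0.136%, 0.0603% and 0.0557% of enterocyte-like cells. Of the 517 *LApc* enteroendocrine-like cells, 224 were too shallow to be thinned.

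Among these 3 secretory classes, *Wnt3* differed most between libraries in goblet-like cells, where *LApcL* exceeded *LApc* by a log2 ratio of 2.06 (1.63 to 2.52) and WT by 1.52 (1.24 to 1.80). This moved with the share of goblet-like cells that carried lysozyme transcripts. Cells over 2000 CPM of *Lyz1*, the lysozyme gene of Paneth cells, made up 2.39%, 2.03% and 19.0% of the goblet-like cells of WT, *LApc* and *LApcL* (61, 32 and 185 cells, with 44, 17 and 19 cells between 1500 and 2500 CPM). *Wnt3* in these cells was 41.1, 58.2 and 85.9 CPM, and in the other goblet-like cells it was 9.11, 5.35 and 13.1 CPM. Against the Paneth-like cells of the same library the *Lyz1*-rich cells were higher in these totals. Without the secreted Paneth products they held 46.8, 67.7 and 94.5 CPM, below the Paneth-like level in WT and above it in *LApc* and *LApcL*, and the intervals overlapped in WT and *LApc* but not in *LApcL*. Without the *Lyz1*-rich cells the log2 ratio of *LApcL* over *LApc* was 1.30 (0.73 to 1.87) and that over WT was 0.53 (0.12 to 0.92). Whether these cells are goblet cells with Paneth transcripts, mixed droplets or intermediate cells was not tested.

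In Paneth-like cells the log2 ratio of *LApcL* over *LApc* was 0.85 (0.29 to 1.44) and that of *LApc* over WT was -0.60 (-1.13 to -0.11). *LApcL* over WT was 0.25 (-0.08 to 0.56), an interval spanning 0, and it turned to -0.12 (-0.44 to 0.19) when the secreted Paneth products, which hold much of these cells' UMIs, were left out of the total. The Paneth-like cells were also deeper in WT, with a median of 43790 UMIs against 14144 in *LApc* and 18634 in *LApcL*. Among enteroendocrine-like cells, the *Wnt3* level was higher where a UMI of *Neurog3*, the transcription factor of endocrine progenitors, was present. The levels with and without it were 45.7 and 21.2 CPM in WT (30 and 291 cells), 63.9 and 24.1 CPM in *LApc* (24 and 493 cells), and 153 and 32.7 CPM in *LApcL* (38 and 325 cells). The log2 ratios were 1.11 (0.15 to 1.96), 1.41 (0.01 to 2.57) and 2.22 (1.53 to 2.88), so the direction of the levels was the same in all 3 libraries. After thinning, the shares of cells with a *Wnt3* UMI were 6.67% with and 6.87% without it in WT. They were 13.6% and 5.17% in *LApc*, and 41.7% and 11.3% in *LApcL*. The intervals of these shares overlapped in WT and *LApc* but not in *LApcL*.

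**Figure D3:**
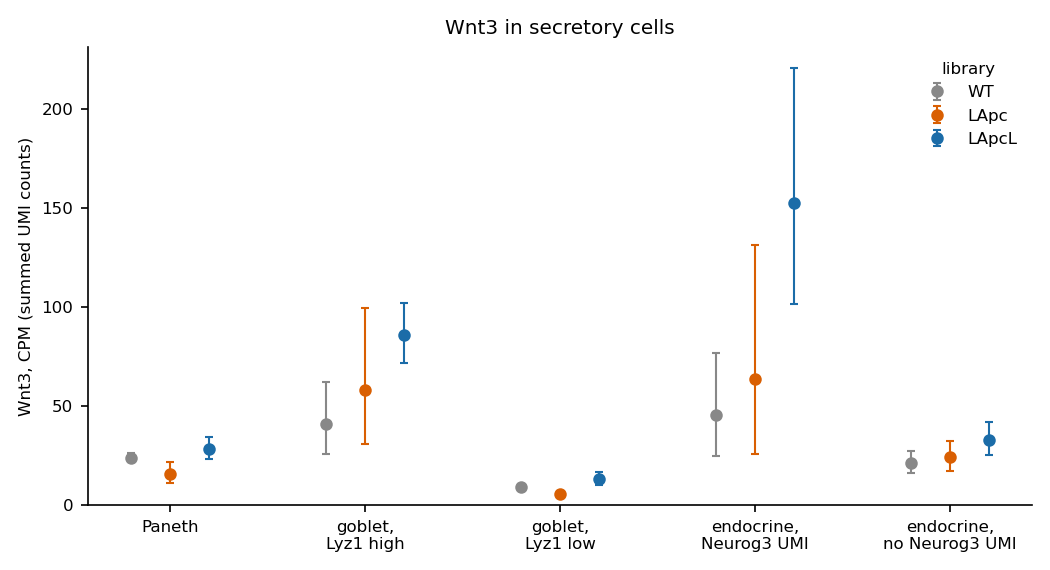
Level of *Wnt3* (CPM of summed UMI counts, linear axis from 0) in Paneth-like cells, in goblet-like cells over or up to 2000 CPM of *Lyz1*, and in enteroendocrine-like cells with or without a *Neurog3* UMI, for the 3 libraries with exact 95% Poisson intervals. In each library the *Lyz1*-rich goblet-like cells lie above the other goblet-like cells, and the *Neurog3* cells lie above the other enteroendocrine-like cells, reaching 153 CPM in LApcL.

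*Wls* (chr3:159839672-159938664, plus strand) was widely detected. In the other Wnt/TA-like cells it was 28.6, 25.1 and 28.0 CPM in WT, *LApc* and *LApcL*, and in enterocyte-like cells 12.5, 8.04 and 10.7 CPM, log2 ratios of enterocyte-like over other Wnt/TA-like cells of -1.19, -1.64 and -1.39. Goblet-like cells held 22, 16.5 and 25.3 CPM and enteroendocrine-like cells 27.4, 21.1 and 38.3 CPM. Paneth-like cells, the known Wnt3 source, held 7.05, 10.1 and 9.17 CPM, below the other Wnt/TA-like cells in each library. Without the secreted Paneth products these levels were 20.6, 23.2 and 20.8 CPM, and the intervals overlapped those of the other Wnt/TA-like cells in *LApc* and *LApcL* but not in WT. Crypt cells with an *Lgr5* UMI and no adenoma profile held 32.6, 37.2 and 35.8 CPM against 27.4, 22.5 and 25.8 CPM in those without. *Wls* in adenoma-enriched cells was 35.9 CPM (32.2 to 39.8) in *LApc* against 24.0 CPM (23.1 to 25) in *LApcL*.

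*Porcn* (chrX:8193848-8206525, minus strand) was near the detection limit, with 160, 112 and 253 UMIs over all cells kept from the WT, *LApc* and *LApcL* libraries. Goblet-like cells held 2.66, 3.51 and 3.09 CPM, above their enterocyte-like cells with 0.614, 0.743 and 0.508 CPM in each library. The adenoma-enriched cells held 3.01 CPM (2.03 to 4.30, 30 UMIs) in *LApc* against 1.66 CPM (1.43 to 1.92, 183 UMIs) in *LApcL*, and the other Wnt/TA-like cells 1.09, 1.55 and 1.93 CPM. The tuft-like levels of 3.42, 2.40 and 2.95 CPM rested on 8, 1 and 5 UMIs.

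*Fzd5* (chr1:64730558-64737751, minus strand) encodes a receptor whose transcript was lower in adenoma-enriched cells than in the other Wnt/TA-like and the enterocyte-like cells of both mutants. Enterocyte-like cells held 61.8, 68.5 and 66.6 CPM in WT, *LApc* and *LApcL*, with intervals of 59.0 to 64.6, 65.2 to 72.0 and 62.6 to 70.7. The other Wnt/TA-like cells held 49.5, 60.3 and 38.2 CPM. In adenoma-enriched cells it was 9.04 CPM (7.27 to 11.1, 90 UMIs) in *LApc* against 15.1 CPM (14.4 to 15.9, 1666 UMIs) in *LApcL*. Goblet-like and Paneth-like cells were also low, with 11.5, 16.5 and 14.9 CPM and with 3.78, 6.12 and 5.00 CPM, the latter becoming 11.1, 14.1 and 11.3 CPM without the secreted Paneth products. Within the other Wnt/TA-like cells, those with an *Lgr5* UMI had less *Fzd5* than those without, by -0.82, -0.80 and -1.12 on the log2 scale, and each interval lay below 0. Among enterocyte-like clusters the *Apoa4*-rich one was lowest, with 38.8, 47.6 and 48.2 CPM against 72.5, 77.1 and 73.6 CPM in cluster 3 and 62.8, 77.2 and 71.6 CPM in the *Fabp6*-rich one.

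*Fzd7* (chr1:59482424-59486955, plus strand), a receptor known from Lgr5+ stem cells, was low and, among the other Wnt/TA-like cells, higher where an *Lgr5* UMI was present. Crypt cells with an *Lgr5* UMI and no adenoma profile held 8.79, 5.31 and 6.92 CPM in WT, *LApc* and *LApcL*, and those without held 4.61, 3.03 and 2.61 CPM. The log2 ratios were 0.93 (0.48 to 1.37), 0.81 (-0.19 to 1.73) and 1.41 (0.40 to 2.38), the opposite direction to *Fzd5*, and the *LApc* interval spanned 0. The adenoma-enriched levels were 5.83 CPM (4.43 to 7.53) in *LApc* against 5.82 CPM (5.38 to 6.29) in *LApcL*, while *Lgr5* there was 35.2 and 7.68 CPM. Enterocyte-like cells held 1.87, 1.97 and 2.73 CPM.

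*Lrp5* (chr19:3584828-3686564, minus strand) was 40.7 CPM (36.8 to 44.9) in the adenoma-enriched cells of *LApc* and 22.4 CPM (21.5 to 23.3) in those of *LApcL*. In the other Wnt/TA-like cells it was 16.1, 24.5 and 19.9 CPM and in enterocyte-like cells 12.9, 17.9 and 18.2 CPM. The tuft-like level of 43.1 CPM in *LApc* rested on 18 UMIs, against 16.3 and 17.1 CPM in WT and *LApcL*. Those 86 *LApc* tuft-like cells held 1589 CPM of immune markers, led by *Gzma* at 961 CPM, against 77.8 and 83.1 CPM in WT and *LApcL*, although the sort also stained for CD45, the pan-leukocyte antigen, and Ter-119 of red cells. The part of immune RNA in the *Lrp5* level was not tested.

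*Lrp6* (chr6:134446476-134566965, minus strand) was detected in every named class of each library. Enteroendocrine-like cells held 46.6, 43.3 and 38.3 CPM, the other Wnt/TA-like cells 35.0, 35.0 and 30.7 CPM, and enterocyte-like cells 36.1, 35.8 and 31.5 CPM. Paneth-like cells were lowest for *Lrp6* in every library, with 4.72, 6.99 and 6.12 CPM, as they were for *Lrp5* with 3.11, 6.56 and 5.28 CPM. Without the secreted Paneth products the values were 13.8, 16.1 and 13.8 CPM for *Lrp6*, still the lowest of the classes although the *LApc* interval (9.23 to 26.2) held the tuft-like level of 16.8 CPM. For *Lrp5* they were 9.08, 15.1 and 12.0 CPM, against 10.1, 14.8 and 18.6 CPM in goblet-like cells, so Paneth-like cells were no longer lowest in *LApc*. The adenoma-enriched levels of *Lrp6* were 30.9 CPM (27.6 to 34.6) in *LApc* against 24.9 CPM (24.0 to 25.8) in *LApcL*.

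**Figure D4:**
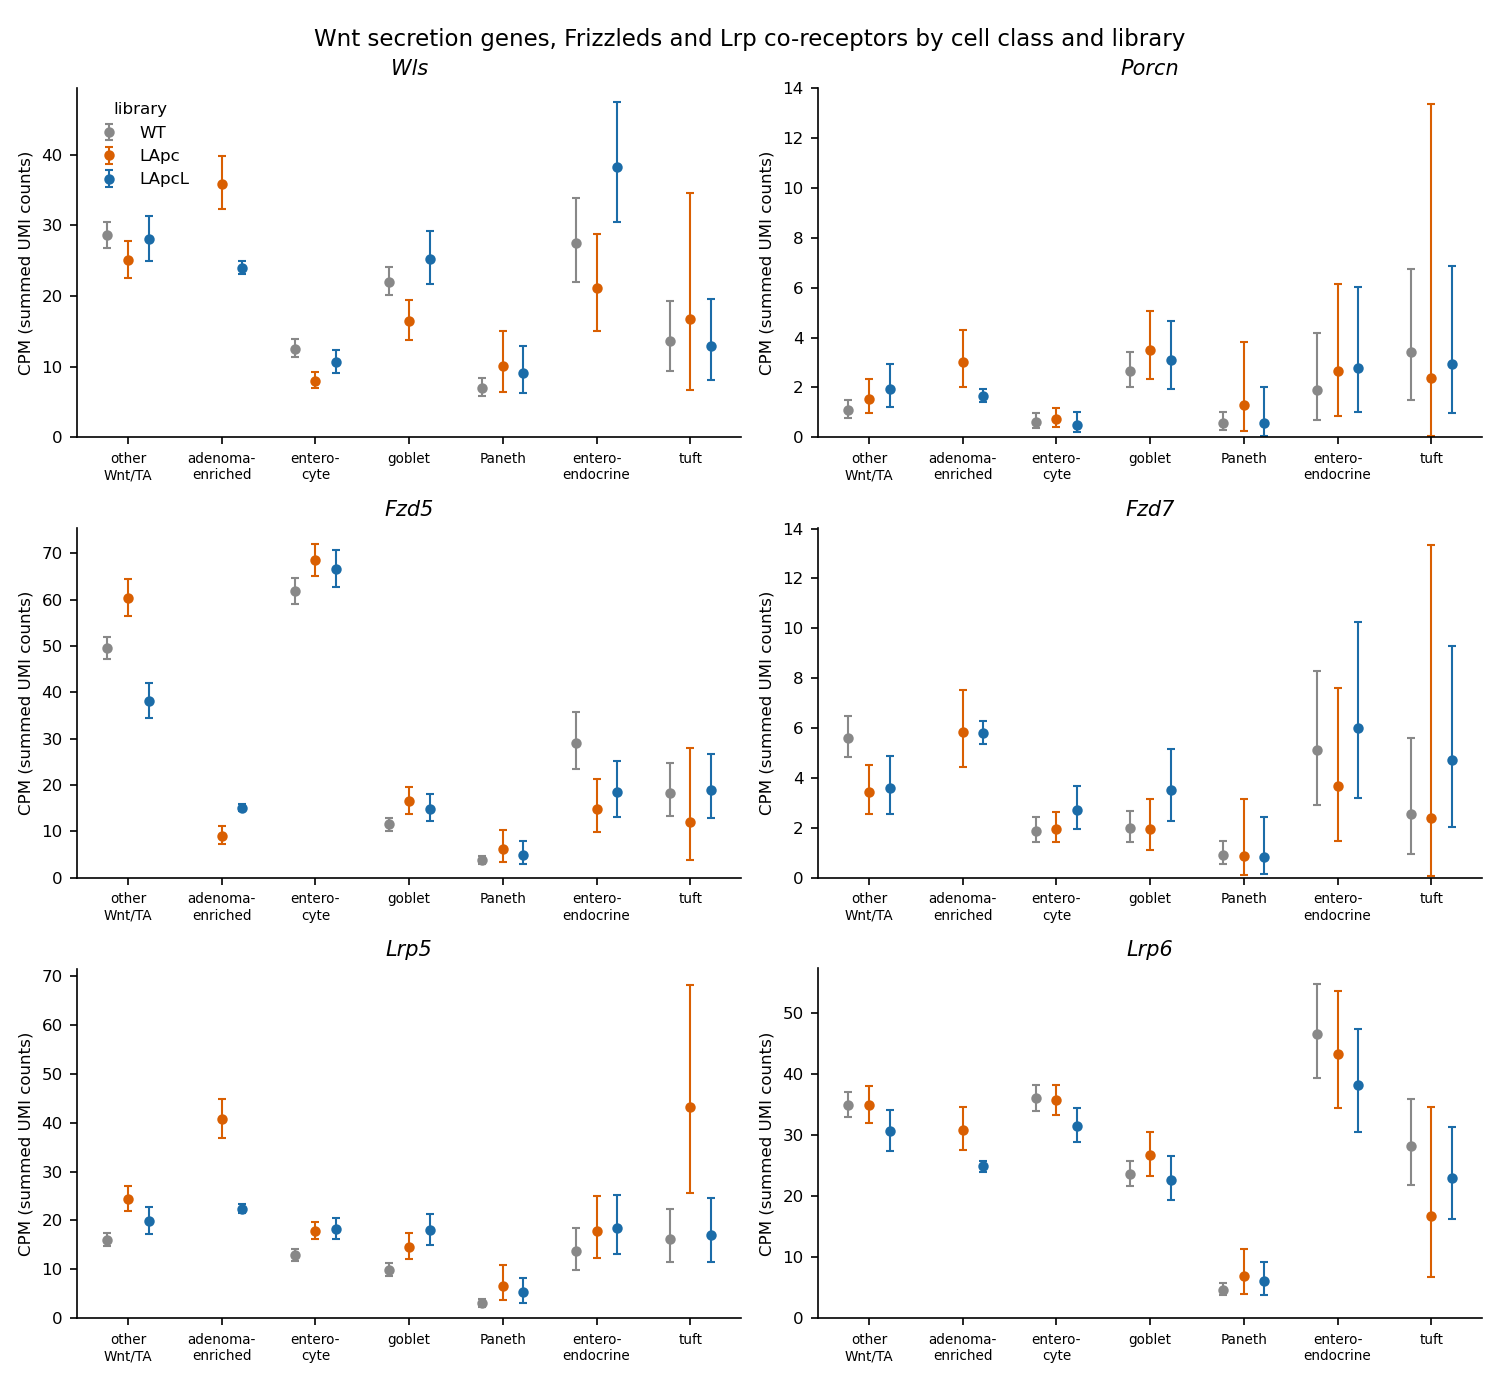
Levels of *Wls*, *Porcn*, *Fzd5*, *Fzd7*, *Lrp5* and *Lrp6* (CPM of summed UMI counts, linear axes from 0) in 7 cell classes of the 3 libraries, with exact 95% Poisson intervals and the same layout as the ligand plot. *Fzd5* is 9.04 and 15.1 CPM in adenoma-enriched cells and over 60 CPM in enterocyte-like cells. *Lrp5* and *Lrp6* are lowest in Paneth-like cells, where secreted Paneth products hold 55.8 to 65.8% of the total.

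The comparison of adenoma-enriched cells addressed the loss of *Lef1*. A gene was called when it differed 2-fold or more, among the genes with a mean of at least 5 CPM over the compared sides. In *LApcL* against *LApc*, 7 of the 10 genes passed this filter, 2 were called lower and 0 higher, beside 8.09% lower and 0.855% higher among all 9710 genes tested. *Wnt6* was lower by a log2 ratio of -4.23 (-4.42 to -4.03, 18.7-fold) and *Wnt10a* by -3.79 (-4.20 to -3.38, 13.9-fold), and these read -3.05 and -2.62 when the subclusters were drawn without correction between libraries. Both passed the filter only through their *LApc* level and so had to differ once they passed. *Wls* was -0.58 (-0.74 to -0.41), *Lrp5* -0.86 (-1.01 to -0.71), *Lrp6* -0.31 (-0.48 to -0.14) and *Fzd7* -0.00 (-0.39 to 0.41), with the sign of *Fzd7* turning under TMM scaling (0.23). *Fzd5* went the other way, 0.74 (0.43 to 1.06), but read -1.21 under that uncorrected division. Below the filter, *Wnt3* was 0.59 (-0.15 to 1.45), *Wnt11* -0.74 (-1.59 to 0.22) and *Porcn* -0.86 (-1.42 to -0.25). The median over the genes that passed was -0.58, and that over all tested genes -0.11. At 1.5-fold, 4 of the 7 that passed were called, with *Fzd5* higher and *Lrp5* lower in addition, beside 19.6% of the 9710 genes tested.

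The smaller differences were also taken within each adenoma cell state. Among cells led by *S100g* the log2 ratios of *LApcL* over *LApc* were -0.31 (-0.62 to 0.00) for *Lrp5*, -0.13 (-0.44 to 0.19) for *Wls* and 0.30 (-0.15 to 0.79) for *Fzd5*. Among cells led by *Wfdc18* they were -0.61, -0.46 and 0.43. For *Lrp5*, the subcluster levels in *LApc* ran from 23.9 to 46.4 CPM and those in *LApcL* from 19.8 to 31.8 CPM. For *Wls*, subcluster 6 was highest in both libraries, at 50.9 and 33.3 CPM.

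Within a library, day and mouse are shared, so the adenoma-enriched cells were also set against the other Wnt/TA-like cells of the same library. Their median depths were 7538 and 7073 UMIs in *LApc* and 11466 and 9194 UMIs in *LApcL*. In *LApc*, 6 of the 10 genes passed, 2 were called higher and 1 lower, beside 15.2% higher and 5.23% lower among all 9734 genes tested. *Wnt6* was higher by a log2 ratio of 5.80 (5.07 to 6.65) and *Wnt10a* by 6.42 (4.54 to 9.48, with 2 UMIs on the lower side), while *Fzd5* was -2.74 (-3.07 to -2.42, 6.67-fold lower). Both genes called higher passed the filter only through their adenoma-enriched level, so their count is no support. *Lrp5* was 0.73 (0.53 to 0.94), *Wls* 0.52 (0.30 to 0.73) and *Lrp6* -0.18 (-0.38 to 0.03). In *LApcL*, 4 of the 10 passed, 0 were called higher and 1 lower, beside 7.58% higher and 4.15% lower among all 9174 genes. The called gene was *Fzd5*, -1.34 (-1.49 to -1.18, 2.52-fold lower). *Wls* was -0.22 (-0.39 to -0.05), *Lrp5* 0.17 (-0.03 to 0.38) and *Lrp6* -0.30 (-0.47 to -0.13). *Wnt6* lay below the filter at 1.87 (0.93 to 3.01), and *Wnt10a* was 3.18 (0.67 to 8.50) over 1 UMI. With the filter lowered to a mean of 1 CPM and 20 UMIs, *Wnt6* was called as well, giving 2 of the 10 genes. At that filter 16.8% of the 11662 genes tested were called.

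When subclusters were drawn without correction between libraries, 3276 of 3293 *LApc* Wnt/TA-like cells fell among the adenoma-enriched ones and 17 remained outside. Under that division the within-*LApc* ratios of *Wnt6* and *Wnt10a* turned to -0.16 and -2.46 and *Fzd5* was -0.13, so the within-*LApc* contrast rests on the corrected subclusters. In *LApcL*, 23 cells remained outside and *Fzd5* was -0.79.

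For the loss of *Apc*, all Wnt/TA-like cells of *LApc* were set against those of WT. Of the 10 genes 5 passed, 1 was called higher and 0 lower, beside 7.98% higher and 0.997% lower among all 9324 genes. *Wnt6* was 23.3 CPM in *LApc* and 0.424 CPM in WT, a log2 ratio of 5.78 (5.02 to 6.66, 54.9-fold), and it passed the filter through its *LApc* level. *Wnt10a* was 4.72 CPM against 0 of 33035441 UMIs in WT, a difference of at least 5.70 on the log2 scale when WT is set at 3 UMIs. *Lrp5* was 0.95 (0.79 to 1.11), *Fzd5* -0.32 (-0.43 to -0.20), *Wls* 0.04 (-0.10 to 0.18; -0.17 under TMM scaling) and *Lrp6* -0.07 (-0.20 to 0.06). At 1.5-fold 2 of the 5 that passed were called, *Wnt6* and *Lrp5*, beside 20.4% of the 9324 genes tested. At a mean of 1 CPM and 20 UMIs 2 of the 10 genes were called, *Wnt6* and *Wnt10a*, beside 15.3% of the 11834 genes tested at that filter. In the other Wnt/TA-like cells alone, *Lrp5* of *LApc* over WT was 0.60 (0.41 to 0.80) and *Fzd5* was 0.28 (0.17 to 0.40), so the sign for *Fzd5* turned with the adenoma-enriched cells left out. The medians over the genes that passed and over all genes were 0.04 and 0.10 here, 0.63 and 0.19 within *LApc*, and -0.26 and 0.17 within *LApcL*. *LApcL* and WT shared day 21. In that comparison, added after the data were seen, 5 of 10 passed and 1, *Fzd5*, was called (-1.53, -1.62 to -1.43, 2.88-fold lower), beside 13.9% of the 9169 genes tested. *Wnt6*, below the filter, was 2.74 (1.97 to 3.62). These comparisons share libraries and are not independent of each other.

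**Figure D5:**
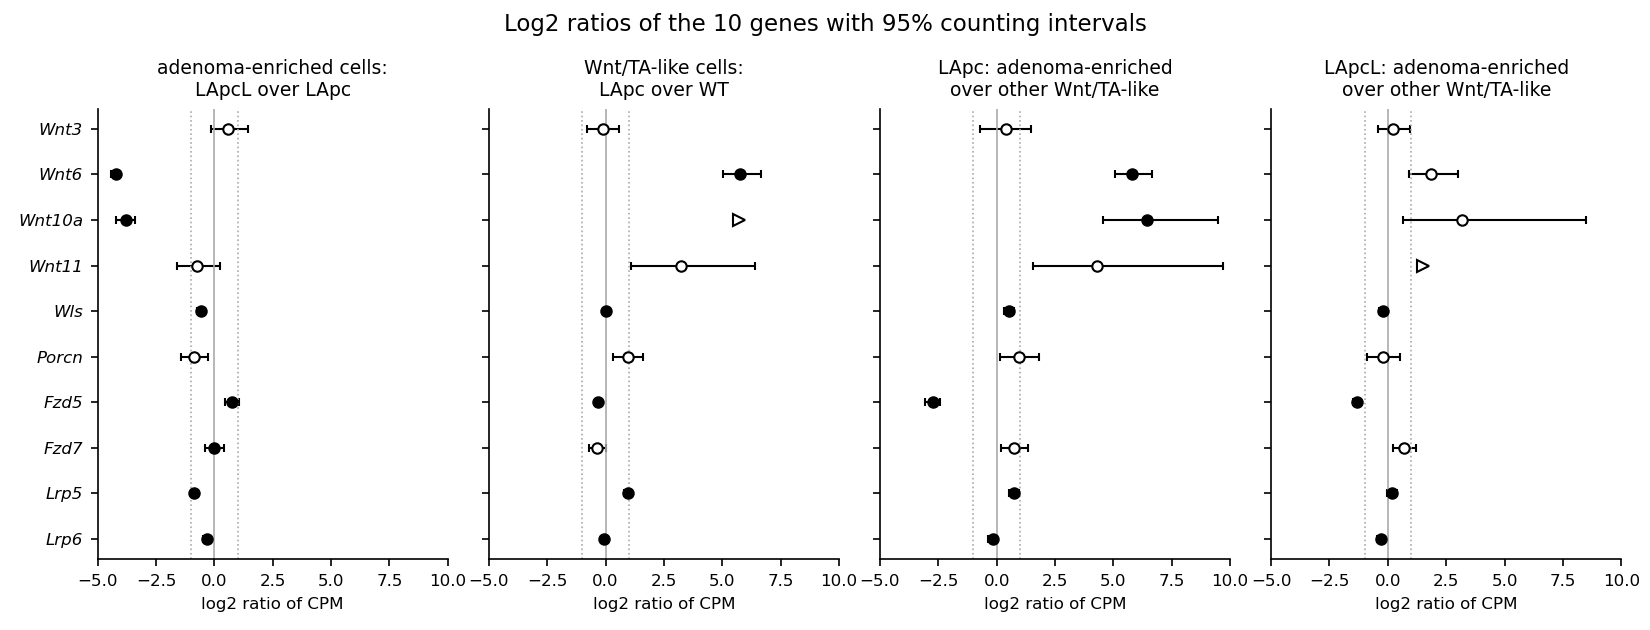
Log2 ratios of CPM for the 10 genes in 4 comparisons, with exact 95% counting intervals and dotted lines at 2-fold. Filled points passed the filter of a mean of 5 CPM, open points did not, and open triangles are lower bounds against a side with 0 UMIs. *Wnt6* and *Wnt10a* lie far to the left in LApcL over LApc and far to the right within LApc, and *Fzd5* lies left of 0 in both within-library comparisons.

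The rest of the pathway was described in the adenoma-enriched cells, *LApcL* over *LApc*, from lists drawn up by function. Among 15 other Wnt ligand genes 0 passed the filter. The most abundant of them, *Wnt5b*, named after its values were seen, was 3.22 CPM in *LApc* against 4.04 CPM in *LApcL*. Of 8 other Frizzled genes 1 passed, *Fzd6*, with a log2 ratio of 0.07. Of 7 other co-receptor genes 5 passed and 1 was called lower, beside 8.09% lower among all genes tested. It was *Ptk7*, a pseudokinase of planar polarity, from 28.3 to 6.99 CPM (-2.02, -2.22 to -1.82). All 10 trafficking genes, which move Wnts and Wls through the secretory and retromer routes, passed and 0 were called (median -0.01).

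Of 9 R-spondin and receptor-turnover genes 4 passed and 2 were called lower, beside the same 8.09% among all genes tested. *Lgr5*, an R-spondin receptor and stem cell marker, went from 35.2 to 7.68 CPM (-2.20, -2.38 to -2.01), and *Znrf3*, a ubiquitin ligase that removes Frizzleds from the surface, from 46.4 to 21.0 CPM (-1.14). *Lgr6*, named after its values were seen, was below the filter with 5 UMIs in *LApc* and 904 in *LApcL* (0.502 and 8.20 CPM). Of 11 secreted inhibitor genes 4 passed and all 4 of these were called lower, beside the 8.09% lower among all genes tested. *Wif1* and *Dkk3* passed only through their *LApc* level, so the count is no support. *Wif1* went from 101 to 0.635 CPM (-7.31), *Dkk3* from 38.0 to 1.43 CPM (-4.73), *Dkk2* from 39.1 to 5.24 CPM (-2.90) and *Notum* from 268 to 99.6 CPM (-1.43). All 4 of these genes, and *Lgr5* and *Znrf3*, were ones that the study itself described in these libraries, so its direction is not independent evidence. All 9 relay genes passed, 0 were called, and their median was -0.19.

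Within *LApc*, adenoma-enriched over other Wnt/TA-like cells, the called genes of these lists were *Wif1* (7.38), *Dkk2* (8.18), *Dkk3* (7.14), *Notum* (6.71), *Ptk7* (2.36), *Znrf3* (1.70), *Rnf43* (1.10), the kinase gene *Csnk1e* (2.45) and *Ctnnb1*, which encodes β-catenin (1.01), all higher. Among all genes tested there, 15.2% were called higher and 5.23% lower. *Wif1*, *Dkk2*, *Dkk3* and *Notum* passed the filter only through their adenoma-enriched level, so their calls are no support. This contrast rests on the corrected subclusters, as stated above. Within *LApcL* the called genes were *Notum* (3.07), *Csnk1e* (1.31) and *Lgr4* (1.04), which were higher, and *Lgr5* (-2.22), which was lower. The shares among all genes tested there were 7.58% higher and 4.15% lower.

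The genes most alike to each of the 10 were sought over 20 sums of library and class, by Pearson correlation of log2(CPM + 1) among 9449 genes with a mean of 5 CPM or more. These sums share libraries and classes, and the values are descriptions. *Wnt3* was most like *Reg4* (r = 0.89) and *Pla2g2f* (0.86), both known from secretory cells, and *Nucb2* (0.83). *Wnt6* was most like *Muc6* (0.88), *Slc38a4* (0.85) and *Ier3* (0.85), and *Wnt10a* like *Tubb6* (0.88), *Tesc* (0.85) and *Neb* (0.85). *Wnt11* was most like *Lamp2* (0.87), *Sbspon* (0.86) and *Muc6* (0.86). *Fzd5* was most like *Arhgap27os2* (0.97), *Slc25a15* (0.97) and *Plcb3* (0.96), and *Fzd7* like *Rbm12* (0.95), *Ipo9* (0.95) and *Rrp8* (0.94). *Lrp5* was most like *2310009B15Rik* (0.96), *Grn* (0.96) and *Myo9b* (0.95), and *Lrp6* like *Fem1a* (0.98), *Lpp* (0.97) and *Npepps* (0.97). *Wls* was most like *Zfp704* (0.90), *Polr3d* (0.90) and *Terf1* (0.89), and *Porcn* like *St3gal3* (0.89), *Nav2* (0.88) and *Fam110a* (0.88).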

How the data were processed

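The authors processed the 10x Genomics reads with Cell Ranger 2.1.1 and deposited UMI counts per gene and barcode for each library; the submitters' notes name mm10. The chemistry version of each library is not given in the sources used here. From these counts, barcodes over 20% mitochondrial UMIs or in the tails of gene number were removed, and the highest-scoring Scrublet doublets were removed at a rate that grew with the number of barcodes (1023, 1135 and 2326 barcodes), because its automatic limit marked 4 of 13214 *LApc* barcodes. Seurat 5.3.0 clusters (R 4.3.3) at resolution 0.2, made without the genes and lists described here, were named from markers, and clusters led by goblet with cell-cycle genes or by haemoglobin genes stayed unnamed (732, 332 and 426 cells). Wnt/TA-like cells were subclustered (leidenalg 0.10.2) after mutual nearest neighbour correction. Intervals used scipy 1.17.1, and TMM factors edgeR 4.0.16. Calculations were tested on simulated data. The 10 genes, the lists and the tests were chosen with earlier results of these data known. All 10 genes were named, with up to 4 called genes of each list by absolute log2 ratio and others in counts of 5 or fewer, and the 3 most alike genes of each member with 100 UMIs or more. Alternatives covered resolution, mitochondrial limit, scaling, filter, fold, class rule, subclustering and cell state.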

Additional observations from a re-analysis of the deposited data

Results flagged for a closer look

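*Wls* in adenoma-enriched over other Wnt/TA-like cells had opposite signs in the mutant libraries, 0.52 in *LApc* and -0.22 in *LApcL* on the log2 scale. With 1 library each, the difference was not tested. The barcodes left out as low quality or doublets, which enter no comparison, held *Wnt6* at 7.72 CPM in *LApc* (133 UMIs) and 1.86 CPM in *LApcL* (67 UMIs), against 0.782 CPM in WT. They held *Wnt10a* at 2.15 CPM in *LApc* against 0.943 CPM in *LApcL*, against 0 UMIs in WT. These levels were set aside from the class sums because the barcodes were not assigned to a cell class.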

How the results depend on the processing

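Of 34 alternatives to a count of genes, 28 stayed within 1.5 times the reported count. In adenoma-enriched cells, *LApcL* over *LApc*, 4 genes were called at 1.5-fold. For *LApc* over WT, 2 were called at 1.5-fold and 2 at a mean of 1 CPM and 20 UMIs. Within *LApcL*, 2 were called at that lower filter and 0 with subclusters from uncorrected components. With cells classed by their highest marker score, 5 of the 10 genes kept their class of highest level in each library, against 9 at resolution 0.4, 9 under a stricter mitochondrial limit and 9 without secreted Paneth products in the totals. Of 124 single log2 ratios, 92 stayed inside the reported interval, 30 moved outside it and 2, both of called genes, turned. Within *LApc*, uncorrected subclusters gave *Wnt6* -0.16 and *Wnt10a* -2.46, with 17 cells on one side. Ratios of genes not called also changed sign, and these were counted by the interval alone. They include *Fzd5* of *LApcL* over *LApc*, whose reported interval (0.43 to 1.06) lay above 0. Uncorrected subclusters gave *Fzd5* -1.21 for *LApcL* over *LApc*, *Lrp6* 1.94 within *LApc* and *Lrp5* -0.16 within *LApcL*, *Wls* of *LApc* over WT was -0.17 under TMM and -0.04 by marker score, and *Fzd7* of *LApcL* over *LApc*, reported as -0.00, was 0.11 to 0.36 under 4 alternatives. TMM scaling moved the median of all genes from -0.11 to 0.12 in adenoma-enriched cells and from 0.19 to -0.08 within *LApc*, and the share of calls that were higher from 9.55 to 21.7%, from 88.9 to 77.4% (*LApc* over WT), from 74.4 to 56.8% (within *LApc*) and from 64.6 to 53.8% (within *LApcL*). The numbers of the 10 genes called higher or lower were the same under TMM and without ribosomal protein and mitochondrial genes. The totals without secreted Paneth products, goblet-like cells without *Lyz1*-rich ones and the same-day comparison were chosen after seeing the data. No paired analysis was possible because each group was 1 library, and no replicate could be left out.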
